A study of Homo sapiens with 12 samples.

Results

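PC9 cells that overexpress AGR2 were compared with PC9 control cells after 72 h in 300 nM gefitinib. These are 6 of the 12 RNA-seq libraries of the study, 3 from overexpressing cells and 3 from controls, chosen by their labels. PC9 is an established non-small cell lung cancer line that carries an activating EGFR mutation, and gefitinib blocks the EGFR kinase. Both groups received the drug, so neither shows cells without it. The other 6 libraries, 3 controls and 3 AGR2-knockdown libraries at 24 h of the same dose, are used here for AGR2 itself and for 1 comparison near the end. The labels do not state the vector, its promoter, whether the overexpressing cells are 1 clone, or what the control cells carry. They number the replicates without saying that these were separate cultures, so each p measures the spread between these libraries only, which may be technical. With 3 libraries against 3 the smallest two-sided exact permutation p is 0.1, so tests were made with limma across all genes.

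AGR2 belongs to the protein disulfide isomerases and resides in the endoplasmic reticulum of secretory epithelia. It assists the folding of cysteine-rich secreted and membrane proteins, mucins above all, and it can also leave the cell. In adenocarcinomas it is known as a marker of secretory, luminal differentiation. Changes are given as log2 fold changes on the log2(TPM + 1) scale, which understates the change of low genes, and a rise or fall is one that passed limma with a Benjamini-Hochberg adjusted p below 0.05 over 14618 tested genes. TPM is a transcript abundance scaled to a fixed sum per library and corrected for transcript length. Read numbers cannot be recovered from it, and sequencing depth is therefore unknown.

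The AGR2 gene (ENSG00000106541) lies on the minus strand of chromosome 7 at 16791811 to 16833433 of GRCh38. Its RNA was measured at 8.67, 7.82 and 7.84 TPM in the control libraries and 12.1, 10.7 and 10.7 TPM in the overexpressing libraries. Every overexpressing library lay above every control, and the mean was 1.38-fold higher (log2 fold change 0.42, SE 0.0722, adjusted p = 0.00429; 0.36 without overexpression replicate 1). The same separation held for 34.5% of all tested genes and 29.4% rose, so the rise of AGR2 RNA does not stand out among them. The 24 h controls held 32.9, 31.2 and 31.7 TPM, so the overexpressing cells at 72 h stayed below the controls at 24 h in AGR2 RNA. How the deposited quantification treats transcripts of an introduced AGR2 sequence is not stated in these sources, and a gene on the other strand overlaps the AGR2 locus.

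The 2 groups were distinct. Log2 values correlated at 0.974 to 0.992 within groups and at 0.930 to 0.936 between them, and a first principal component holding 75.5% of the variance separated the groups. The second, with 12.6%, set overexpression replicate 1 at -31.6 apart from replicates 2 and 3 at 22.9 and 9.56. In that library mitochondrial transcripts took 37.3% of TPM, against 47.4% and 45.8% in the other 2 and 41.1% to 42.8% in the controls. Pseudogenes took 24.1% of its TPM, against 18.8% and 19.7% in the other 2 and 23.9% to 24.6% in the controls. The part of these shares in any result was not tested. Counts of list members are therefore also given without that library. Of 424 genes eligible to be named 371 passed the test, and 370 of these kept their call and sign without it. Many of the 424 were chosen by the size of their change, so high counts follow in part from the choice. Over all 14618 tested genes 53.7% passed, and 7649 of these 7848 calls were kept. The exception among the 371 was MAGEC1 (-0.28, and -0.20 without that library, adjusted p = 0.0534 from limma). The fold change moved by over 1.5 times for BMP1 (-0.40; -0.26 without it), PSME2 (0.38; 0.24) and RPS29 (0.51; 0.32), and 19 further genes passed without it. These 3 genes and MAGEC1 also lost their call without control replicate 1, 2 or 3 or overexpression replicate 3. Of the markers of other cell types, most were low and 3 reached the filter. PTPRC, the leukocyte common antigen, did not exceed 0.0213 TPM, none of 6 endothelial markers was tested and the highest reached 0.817 TPM, and of 5 fibroblast markers in the table only COL1A1 reached the filter, at 8.16 TPM in the controls and 6.01 TPM in the overexpressing cells. CD14, a monocyte receptor, ranged from 1.05 to 2.19 TPM in the controls and from 0.439 to 1.91 TPM in the overexpressing libraries, and LYZ, the lysozyme of myeloid and secretory cells, did not exceed 1.08 TPM. CD68, a lysosomal protein used as a macrophage marker, stood at 109 TPM in the controls and 66.2 TPM in the overexpressing cells. Epithelial keratins were abundant in both groups, whereas of the lung markers FOXA2 was listed at 0 in all 6 libraries, SFTPB, SFTA3 and SLC34A2 did not exceed 0.0322 TPM and NAPSA did not exceed 0.980 TPM. NKX2-1, the lung lineage transcription factor, rose from 1.31 ± 0.308 to 6.53 ± 1.04 TPM. FOXJ1 of the same marker list went the other way, averaging 4.64 TPM in the controls and 3.12 TPM in the overexpressing libraries. Of 11 tested lung and airway epithelial markers 6 rose and 2 fell (7 and 3 without overexpression replicate 1).

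A large share of the transcriptome differed between the 2 groups. Of the 14618 genes, 4297 rose (29.4%) and 3551 fell (24.3%), with 1053 rises (7.2%) and 564 falls (3.86%) of at least 2-fold. Without overexpression replicate 1 the counts were 5151 rises (35.2%) and 4234 falls (29%), or 1134 (7.76%) and 559 (3.82%) at 2-fold. Of the 7848 calls (53.7%) 7649 kept their call and sign without that library, 199 lost it and 0 turned. The 3 libraries of each group did not overlap for 9452 genes (64.7%). The median gene changed by 0.031. Rescaling libraries by the median ratio gave 4052 rises (27.7%) and 3879 falls (26.5%), and a quantile normalisation gave 3883 and 4427, so a small predominance of rises or of falls is not settled. Counts of list members below are to be read against these shares. All lists were written with earlier results of these data known. The filter also admitted genes that reached 1 TPM in only 1 group. Among the rises these include HPGD, BMP3, CYP4F12, NOXA1, RIGI and IFI44L, and among the falls KRT5, CYBA and MAGEA4. In bulk RNA, fewer cells of a type and less RNA per cell cannot be told apart.

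**Figure D1:**
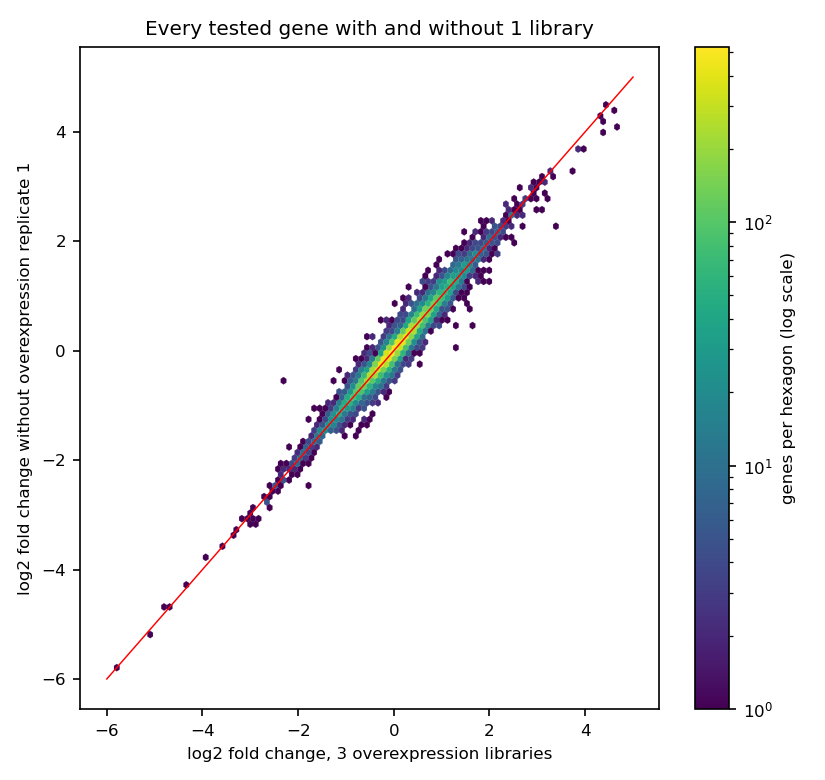
Log2 fold change of the tested genes over all 6 libraries (x axis) against that without overexpression replicate 1 (y axis), as hexagons coloured by the number of genes on a log scale, with the line of equal values in red. Most genes lie close to the line, and of 7848 calls 7649 kept their call and sign.

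The largest rise was that of S100P, a calcium-binding protein of secretory and tumour epithelia. It stood at 14.6, 13.6 and 13.4 TPM in the control libraries and 467, 296 and 319 TPM in the overexpressing libraries (log2 fold change 4.58, SE 0.18, adjusted p = 2.77e-05; 4.37 without overexpression replicate 1). RARRES1, a retinoic acid-induced membrane protein, stood at 1.22, 1.299 and 1.41 TPM in the control libraries and 49.6, 51.9 and 50.04 TPM in the overexpressing libraries (log2 fold change 4.48, SE 0.0549, adjusted p = 2.53e-06). Both were low in all controls and high in all overexpressing libraries. ADIRF, a gene named for its part in adipogenesis, rose from 1.18 ± 0.0742 to 45.2 ± 8.85 TPM (4.39). CFD, a protease of the alternative complement pathway, rose from 6.59 ± 0.342 to 109.6 ± 24.1 TPM (3.84). PSCA, a glycolipid-anchored surface antigen of prostate and bladder epithelium, stood at 62.5, 59.7 and 61.3 TPM in the control libraries and 1033, 786 and 851 TPM in the overexpressing libraries (log2 fold change 3.83, SE 0.11, adjusted p = 1.43e-05). GDF15, a stress-induced cytokine distantly related to TGF-beta, rose from 1.22 ± 0.101 to 18.04 ± 1.23 TPM (3.10). Also among the 25 largest rises with a mean of 5 TPM were the membrane transporter MFSD4A (2.91), GGT6 of the gamma-glutamyltransferase family (2.84), the peptidyl arginine deiminase PADI1 (2.67), the EGF-like domain protein EGFL8 (2.77), CEMP1 (3.15) and PRR15L (2.79).

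The largest fall was that of KRT5, the basal keratin that pairs with KRT14. It stood at 98.5, 94.5 and 102 TPM in the control libraries and 0.798, 0.611 and 0.989 TPM in the overexpressing libraries (log2 fold change -5.79, SE 0.0880, adjusted p = 3.49e-06; -5.79 without overexpression replicate 1). CTAG2, a cancer-testis antigen with near-identical relatives whose reads it may share, fell from 81.3 ± 2.45 to 1.36 ± 0.426 TPM (-5.14). CYBA, the p22phox membrane subunit of NADPH oxidase, stood at 30.7, 32.02 and 33.4 TPM in the control libraries and 0.330, 0.288 and 0.330 TPM in the overexpressing libraries (log2 fold change -4.65, SE 0.0554, adjusted p = 2.53e-06). For each of these genes the 2 groups lay far apart. Absence of overlap was a condition for the list and held for 64.7% of all tested genes. TRBC2, annotated as a T cell receptor constant region, fell from 167 ± 3.78 to 5.28 ± 0.533 TPM (-4.75). The list of the 25 largest falls also held the immune receptor OSCAR (-3.40), the BMP antagonist NOG (-2.92), the small GTPase RRAD (-2.67), the hair keratin-associated KRTAP2-3 (-2.67), the tubulin TUBA1A (-2.64), the sphingosine-1-phosphate receptor S1PR1 (-2.62) and the chorionic gonadotropin subunit CGB8 (-2.51). KRTAP2-3, TUBA1A and CGB8 have close paralogs, so their reads could be split. All 50 of these largest changes kept their call when any 1 of the 6 libraries was left out.

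**Figure D2:**
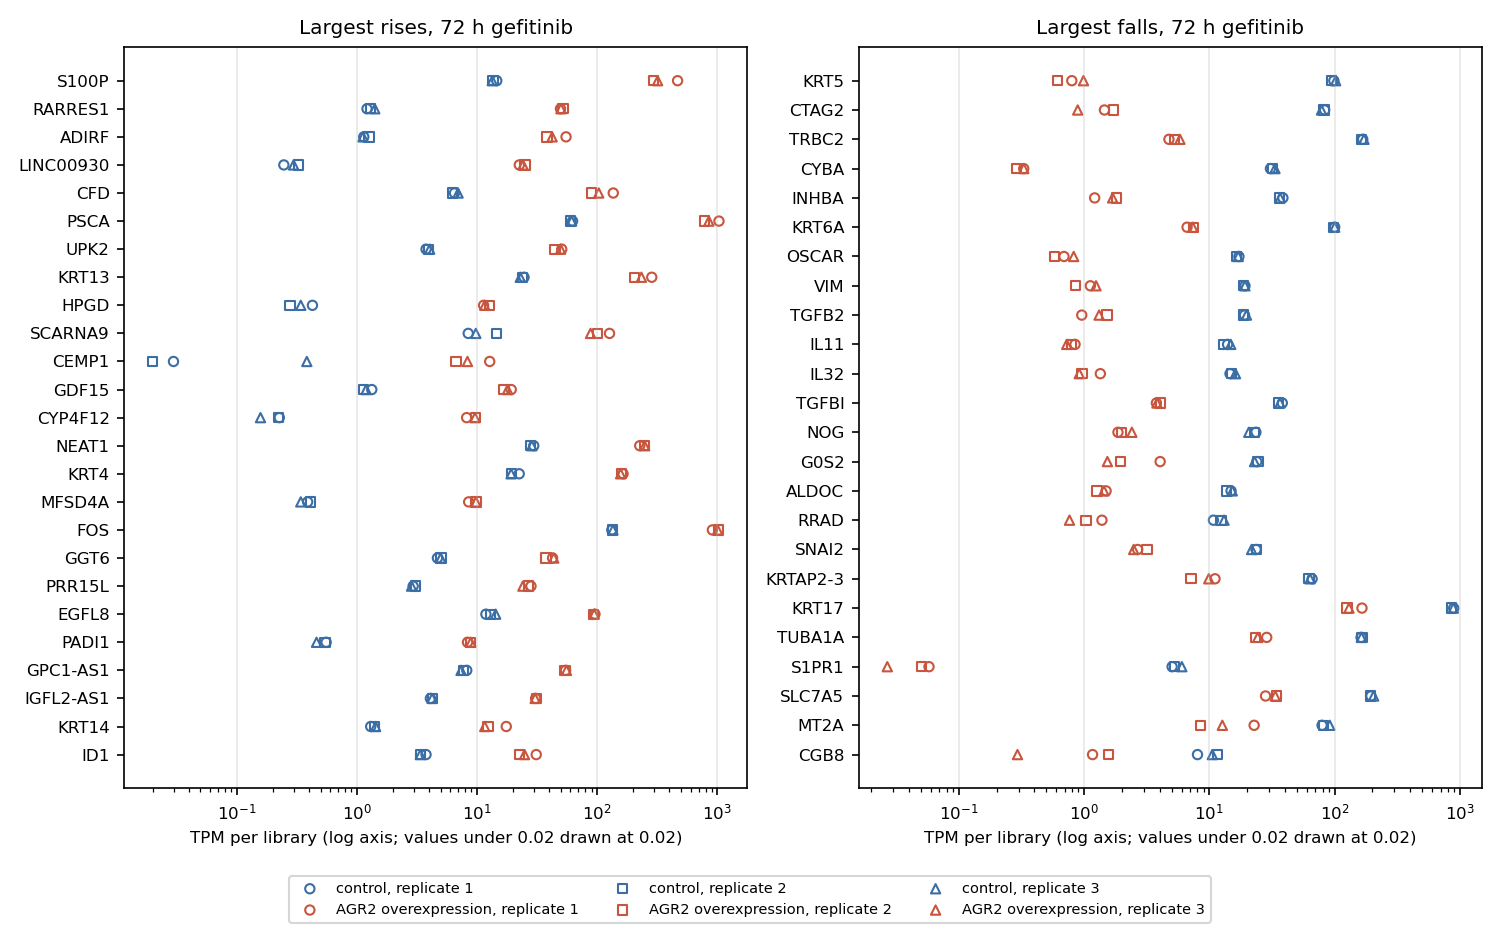
TPM in each of the 6 libraries (x axis, log scale, values under 0.02 drawn at 0.02) for the genes with the largest rises and falls, with controls in blue, overexpressing libraries in red and a symbol for each replicate. The genes shown were chosen among those whose groups do not overlap. KRT5 lies between 94.5 and 102 TPM in the controls against 0.611 to 0.989 TPM in the overexpressing libraries.

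Most tested genes of a list of luminal and umbrella-cell differentiation were higher with AGR2 overexpression. Of 18 tested members 15 rose and 1 fell (17 and 1 without overexpression replicate 1), with a median of 1.54. The list was written with earlier results of these data known. It holds S100P, ADIRF and PSCA, given above among the largest rises, so its count is not separate evidence. The lowest log2 fold change among its tested members was -1.01. UPK1B, UPK3A, KRT20, SNX31 and CYP4B1 of this list did not exceed 0.943 TPM in any of the 6 libraries and were not tested. KRT20 did not exceed 0.177 TPM and UPK1B did not exceed 0.0439 TPM. The uroplakin UPK2, a plaque protein of the urothelial surface, stood at 3.77, 3.93 and 4.04 TPM in the control libraries and 50.8, 44.5 and 49.7 TPM in the overexpressing libraries (log2 fold change 3.33, SE 0.0666, adjusted p = 7.77e-06). UPK3B rose from 23.4 ± 2.05 to 117 ± 2.41 TPM (2.27). KRT13 and KRT4 are partner keratins of the suprabasal layers of wet stratified epithelia. KRT13 stood at 24.7, 23.9 and 22.9 TPM in the control libraries and 285, 205 and 234 TPM in the overexpressing libraries (log2 fold change 3.27, SE 0.12, adjusted p = 2.71e-05), and KRT4 rose from 20.4 ± 1.804 to 160.5 ± 3.77 TPM (2.92). HPGD, which inactivates prostaglandins, rose from 0.349 ± 0.0751 to 11.9 ± 0.690 TPM (3.25), and entered the test through the overexpressing libraries alone.

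Basal keratins did not move as a block. Among 19 tested basal and squamous genes 4 rose and 13 fell (4 and 14 without overexpression replicate 1), with a median of -0.81. KRT17, a keratin of activated and basal cells, stood at 891, 855 and 886 TPM in the control libraries and 165, 126 and 130.1 TPM in the overexpressing libraries (log2 fold change -2.65, SE 0.11, adjusted p = 3.75e-05). KRT6A fell from 99.4 ± 1.13 to 7.15 ± 0.447 TPM (-3.62) and its near-identical copy KRT6B fell from 8.62 ± 1.12 to 1.76 ± 0.198 TPM (-1.80). The laminin subunit LAMA3 (-0.82), which helps anchor basal cells to the basement membrane, and the hemidesmosomal integrin ITGA6 (-0.81) fell. KRT14 rose from 1.38 ± 0.0688 to 13.8 ± 3.23 TPM (2.62), against its partner KRT5. KRT16 rose from 179.9 ± 4.81 to 594 ± 136 TPM (1.69) against its partner KRT6A, and KRT15 rose from 20.9 ± 0.798 to 55.96 ± 4.11 TPM (1.38). KRT14, KRT16 and KRT17 are close in sequence and could share reads.

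Cornified envelope genes, the products of terminal squamous differentiation, were split, with 4 rises and 8 falls among 17 (5 and 10 without overexpression replicate 1). IVL, the envelope precursor involucrin, fell from 8.97 ± 0.673 to 2.55 ± 0.633 TPM, and SPRR3 fell from 5.52 ± 0.101 to 1.63 ± 0.0600 TPM. SPRR1B averaged 2.04 ± 0.185 TPM in the controls and was listed at 0 in the overexpressing libraries. The kallikrein proteases KLK10 (1.16) and KLK8 (0.88) rose. Of 6 simple-epithelium keratins 3 rose and 2 fell, the same counts as without overexpression replicate 1. KRT19 rose from 1571 ± 65.6 to 3019 ± 495 TPM (0.93) and KRT80 fell from 82.4 ± 2.76 to 44.95 ± 4.21 TPM (-0.86), while KRT7 was 794 ± 15.7 and 784 ± 105 TPM. The rises numbered 1 without control replicate 2 or 3, and the falls 1 without control replicate 1 or 2 or overexpression replicate 3.

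Adhesion genes of epithelial junctions were likewise mixed. Of 31 tested 12 rose and 7 fell (15 and 11 without overexpression replicate 1), with a median of 0.029. The median was 0.0073 without that library and below 0 with libraries rescaled by the median ratio (-0.011) or quantile-normalised (-0.019). The falls numbered 4 without control replicate 1 and 11 without overexpression replicate 1. CLDN3, a tight junction claudin, rose from 260.2 ± 5.82 to 636 ± 75.1 TPM (1.28), as did the tight junction scaffold TJP3 (1.12) and the epithelial splicing regulator ESRP2 (1.02). The desmosomal linker DSP fell from 30.1 ± 0.568 to 7.41 ± 1.77 TPM (-1.91) and its partner PKP2 fell from 5.13 ± 0.0651 to 1.902 ± 0.389 TPM (-1.09). CDH1, E-cadherin, measured 15.7 ± 0.181 TPM in the controls and 17.05 ± 2.67 TPM with overexpression and did not pass over all 6 libraries (log2 fold change 0.11), nor did EPCAM (-0.27). Without overexpression replicate 1 both passed, CDH1 at 0.23 (adjusted p = 0.00967) and EPCAM at -0.37 (adjusted p = 0.0035).

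Mucins were higher. Membrane mucins form the glycoprotein coat of the apical surface, and gel-forming mucins are secreted by goblet cells. Of 6 tested mucin and goblet-type genes 5 rose and 0 fell (6 and 0 without overexpression replicate 1), with a median of 1.43. MUC20 stood at 53.9, 52.1 and 52.4 TPM in the control libraries and 259, 308 and 293 TPM in the overexpressing libraries (log2 fold change 2.41, SE 0.0752, adjusted p = 1.64e-05). MUC1 stood at 48.98, 51.7 and 51.5 TPM in the control libraries and 189, 171 and 178 TPM in the overexpressing libraries (log2 fold change 1.80, SE 0.0572, adjusted p = 1.67e-05). For both membrane mucins all overexpressing libraries were above all controls, as for 34.5% of all tested genes. CEACAM6, a glycolipid-anchored adhesion protein, rose from 55.01 ± 1.77 to 182 ± 20.3 TPM (1.70). MUC16, the CA-125 antigen, measured 7.16, 8.66 and 9.02 TPM in the control libraries and 10.2, 24.2 and 18.1 TPM in the overexpressing libraries (log2 fold change 0.92, SE 0.30, adjusted p = 0.0417), and lost its call when any library other than overexpression replicate 1 was left out. MUC4 was 25.5 ± 2.78 TPM in the controls and 42.6 ± 16.7 TPM with overexpression and passed only without overexpression replicate 1 (log2 fold change 1.00, adjusted p = 0.00214). The gel-forming MUC5AC, MUC5B and MUC6, named here with their values seen, did not exceed 0.149 TPM in any of the 6 libraries and were not tested. The list held 23 genes, so most were not tested. Among them AGR3 reached at most 0.610 TPM in the controls and 0.285 TPM in the overexpressing libraries, and SPDEF at most 0.146 and 0.497 TPM.

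Enzymes that build mucin-type O-glycans did not share a direction, with 7 rises and 6 falls among 17 (8 and 6 without overexpression replicate 1). C1GALT1C1, the chaperone COSMC that the core 1 galactosyltransferase needs, rose from 48.2 ± 1.94 to 146 ± 13.7 TPM (1.58). GALNT12, a transferase that starts O-glycan chains, rose from 4.98 ± 0.252 to 16.04 ± 0.442 TPM (1.51), whereas the related GALNT5 fell from 2.26 ± 0.0874 to 0.680 ± 0.104 TPM (-0.96). The fucosyltransferases FUT3 (0.74) and FUT1 (0.80), which make Lewis and H antigens, rose, and the sialyltransferases ST6GALNAC4 (-0.81) and ST3GAL1 (-0.74) fell.

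Mesenchymal genes were lower in the overexpressing cells. Of 19 tested 17 fell and 1 rose (17 and 2 without overexpression replicate 1), with a median of -1.48. Vimentin, VIM, the intermediate filament of mesenchymal cells, stood at 19.2, 18.6 and 19.2 TPM in the control libraries and 1.12, 0.852 and 1.25 TPM in the overexpressing libraries (log2 fold change -3.28, SE 0.0832, adjusted p = 1.06e-05; -3.30 without overexpression replicate 1). TGFBI, a TGF-beta-induced matrix protein, fell from 36.8 ± 1.27 to 3.88 ± 0.150 TPM (-2.95), and fibronectin FN1 fell from 16.05 ± 0.321 to 2.64 ± 0.601 TPM (-2.24). The repressor SNAI2, which lowers epithelial adhesion genes, stood at 23.6, 23.8 and 21.7 TPM in the control libraries and 2.68, 3.18 and 2.49 TPM in the overexpressing libraries (log2 fold change -2.67, SE 0.0845, adjusted p = 1.65e-05). The actin-binding TAGLN (-2.30), the matrix protein THBS1 (-2.28) and the myosin light chain MYL9 (-1.76) fell. The 1 rise was that of S100A4, a calcium-binding protein often used as a mesenchymal marker, from 60.5 ± 3.39 to 358 ± 98.6 TPM (2.51).

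TGF-beta family signals begin with secreted ligands that are stored in latent form, pass through receptor kinases and reach the nucleus through SMAD proteins. Among the ligands, INHBA, the subunit of activin A, stood at 38.6, 36.2 and 36.7 TPM in the control libraries and 1.21, 1.81 and 1.69 TPM in the overexpressing libraries (log2 fold change -3.90, SE 0.0999, adjusted p = 1.06e-05). TGFB2 stood at 19.1, 18.8 and 19.8 TPM in the control libraries and 0.958, 1.52 and 1.32 TPM in the overexpressing libraries (log2 fold change -3.16, SE 0.10, adjusted p = 1.67e-05). Both ligands were low in every overexpressing library, whereas TGFB1 was 12.9 ± 0.459 and 13.1 ± 0.336 TPM (log2 fold change 0.025) and did not pass. The latent binding protein LTBP2 fell from 7.58 ± 0.112 to 2.68 ± 0.476 TPM (-1.23), and BMP3 rose from 0.169 ± 0.0432 to 5.203 ± 0.726 TPM (2.40). The largest rise of this list was that of GDF15 (3.10), given above. Of 12 ligands and binding proteins 3 rose and 5 fell, with 4 rises and 5 falls without overexpression replicate 1, and the falls numbered 3 without control replicate 1, 2 or 3.

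Among 11 receptors and SMADs 4 fell and 0 rose (4 and 1 without overexpression replicate 1). The type II receptor TGFBR2 fell from 4.79 ± 0.160 to 2.01 ± 0.406 TPM (-0.95), the type I receptor TGFBR1 fell from 2.36 ± 0.0374 to 1.34 ± 0.163 TPM (-0.52), and the co-receptor ENG (-0.69) and the BMP receptor BMPR2 (-0.57) fell. SMAD2 was 2.69 ± 0.0938 and 2.72 ± 0.270 TPM, SMAD3 was 4.52 ± 0.149 and 4.22 ± 0.551 TPM, and SMAD4 was 6.28 ± 0.176 and 5.43 ± 0.551 TPM, and none of these 3 passed.

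Target and feedback genes of the family gave 5 rises and 10 falls among 18, the same counts as without overexpression replicate 1, and the rises numbered 3 without control replicate 2 or 3 or overexpression replicate 3. The feedback gene PMEPA1 fell from 23.2 ± 0.647 to 5.29 ± 0.134 TPM (-1.94), the inhibitory SMAD7 fell from 5.498 ± 0.0905 to 2.16 ± 0.284 TPM (-1.04), and the ubiquitin ligase SMURF2 (-0.73), the follistatin-like FSTL3 (-1.12) and the collagen COL7A1 (-0.97) fell. ID1 and ID3 are targets of the BMP branch that block basic helix-loop-helix factors. ID1 stood at 3.77, 3.39 and 3.38 TPM in the control libraries and 31.2, 22.6 and 24.9 TPM in the overexpressing libraries (log2 fold change 2.58, SE 0.12, adjusted p = 5.14e-05), and ID3 rose from 138 ± 5.77 to 218 ± 9.75 TPM (0.65).

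YAP and TAZ are transcription co-activators that bind TEAD factors and respond to cell tension and contact. Of 22 tested target genes 16 fell and 2 rose (16 and 3 without overexpression replicate 1), with a median of -0.63, and the rises numbered 1 without control replicate 1, 2 or 3 or overexpression replicate 2 or 3. CCN2, the matricellular connective tissue growth factor, stood at 32.97, 33.5 and 32.9 TPM in the control libraries and 12.3, 11.9 and 12.1 TPM in the overexpressing libraries (log2 fold change -1.38, SE 0.0429, adjusted p = 1.64e-05). CCN1 fell from 484 ± 10.6 to 222 ± 8.98 TPM (-1.12). ANKRD1 (-1.33), AMOTL1 (-1.13), FJX1 (-1.16) and the receptor kinase AXL (-1.51) fell, and GADD45B rose from 29.4 ± 4.03 to 74.8 ± 6.04 TPM (1.32). TGFB2 and CCN2 also belong to the TGF-beta lists, so these counts are not separate evidence.

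**Figure D3:**
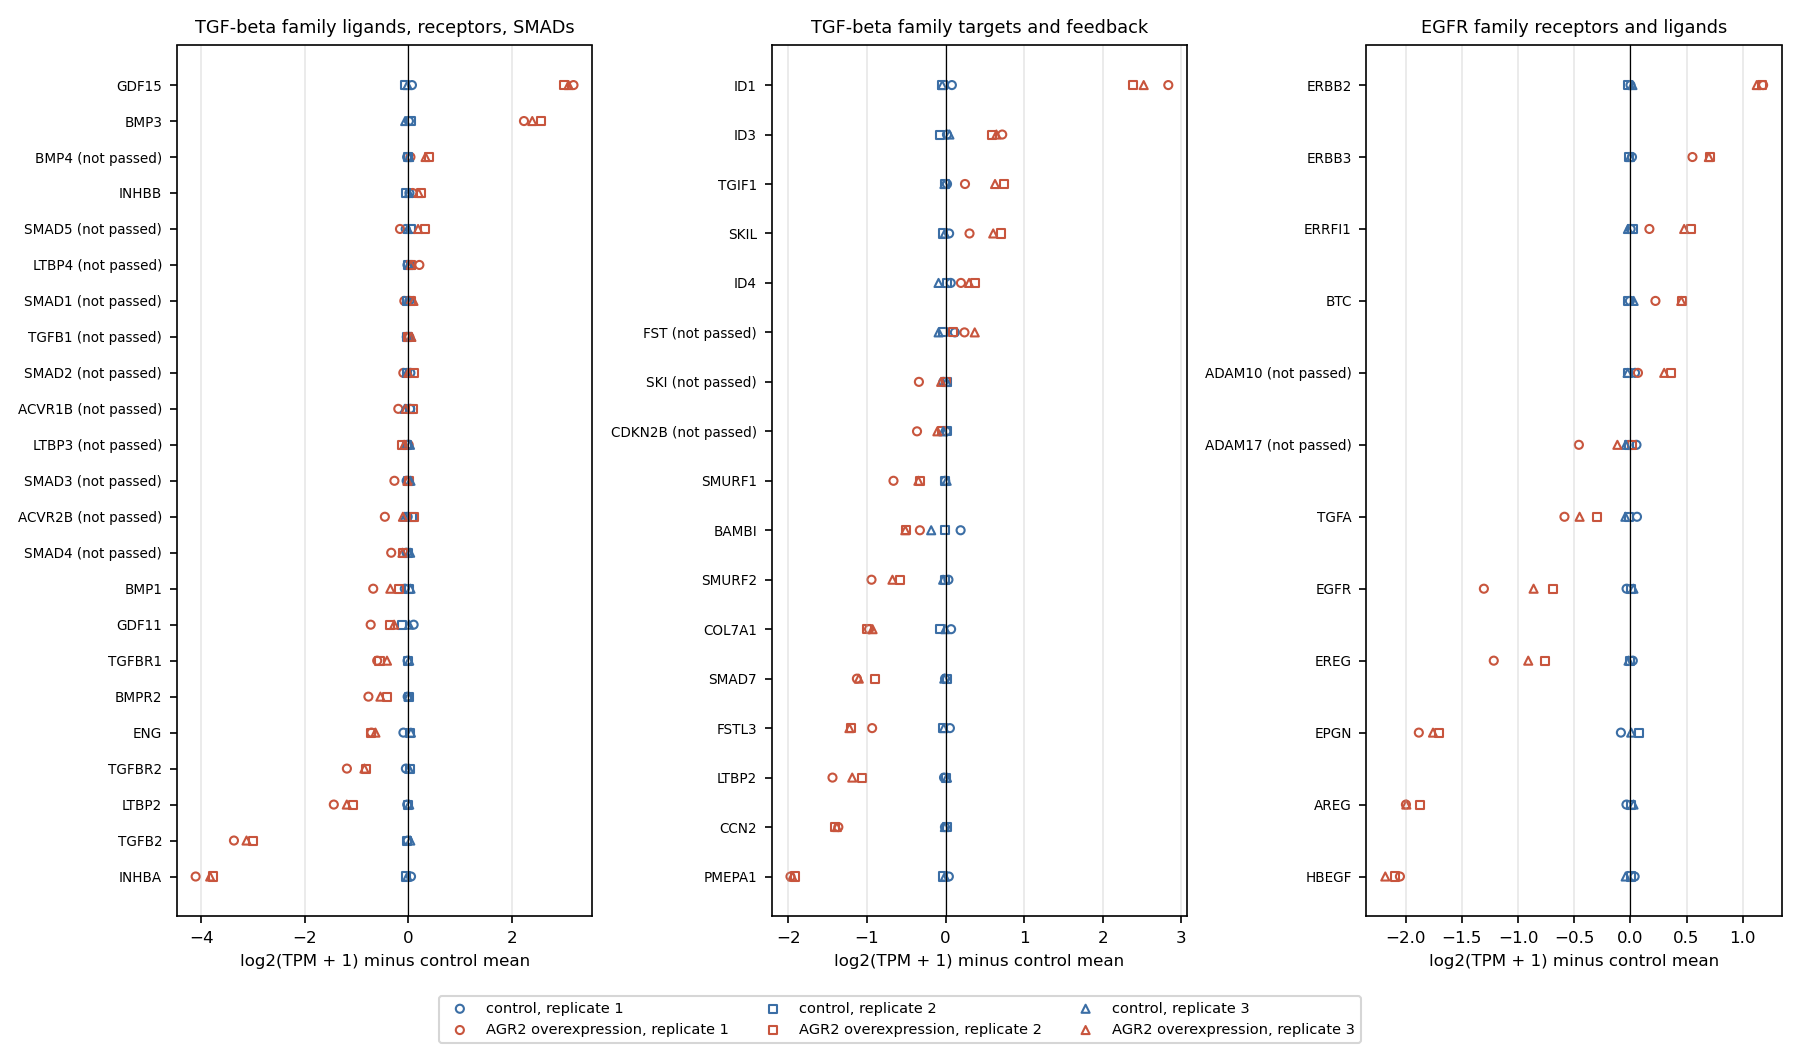
Log2(TPM + 1) of each of the 6 libraries minus the control mean (x axis) for members of the TGF-beta family and EGFR family lists, with controls in blue, overexpressing libraries in red, a symbol for each replicate and members that missed the test marked. INHBA and TGFB2, with log2 fold changes of -3.90 and -3.16, lie far below 0 in every overexpressing library, whereas TGFB1, at 0.025, lies with its controls.

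Integrins and matrix genes were lower, with 16 falls and 2 rises among 21 (17 and 3 without overexpression replicate 1) and a median of -0.53. The rises numbered 1 without control replicate 1, 2 or 3 or overexpression replicate 2 or 3. ITGB8 fell from 4.83 ± 0.130 to 1.36 ± 0.308 TPM (-1.31) and ITGB6 fell from 2.504 ± 0.0616 to 0.860 ± 0.103 TPM (-0.92); both integrins can release TGF-beta from its latent form. The fibronectin receptor chain ITGA5 (-1.08), the collagen receptor chain ITGA2 (-0.74) and the proteoglycan SDC1 (-0.69) also fell. In the plasminogen and metalloprotease list 4 of 13 rose and 6 fell, with the same counts without overexpression replicate 1. The activator PLAU, urokinase, fell from 103 ± 1.78 to 39.4 ± 1.44 TPM (-1.36) and the inhibitor SERPINE2 fell from 5.13 ± 0.0501 to 0.931 ± 0.119 TPM (-1.67). The other activator PLAT rose from 5.11 ± 0.0476 to 14.01 ± 0.879 TPM (1.29), and the metalloprotease inhibitor TIMP3 rose from 35.4 ± 0.787 to 119 ± 6.28 TPM (1.72).

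EGFR, the drug's target, and most of its ligands fell, while the related receptors ERBB2 and ERBB3 rose. EGFR stood at 21.4, 22.1 and 22.4 TPM in the control libraries and 8.31, 13.3 and 11.6 TPM in the overexpressing libraries (log2 fold change -0.95, SE 0.16, adjusted p = 0.00371). The controls lay within 21.4 to 22.4 TPM and no overexpressing library came above 13.3 TPM. All overexpressing libraries lay below all controls for 30.1% of tested genes. ERBB2, the preferred partner receptor, stood at 16.2, 15.97 and 16.4 TPM in the control libraries and 38.01, 37.7 and 36.5 TPM in the overexpressing libraries (log2 fold change 1.16, SE 0.0444, adjusted p = 2.77e-05), and ERBB3, which signals through its partners, rose from 27.5 ± 0.255 to 43.9 ± 2.68 TPM (0.65). Ligands of EGFR were mostly lower. HBEGF stood at 8.83, 8.597 and 8.302 TPM in the control libraries and 1.31, 1.25 and 1.11 TPM in the overexpressing libraries (log2 fold change -2.11, SE 0.0611, adjusted p = 1.55e-05), AREG fell from 4.92 ± 0.130 to 0.527 ± 0.0757 TPM (-1.96), EPGN fell from 3.13 ± 0.231 to 0.204 ± 0.0774 TPM (-1.78) and EREG fell from 3.38 ± 0.0591 to 1.27 ± 0.353 TPM (-0.96). TGFA fell from 5.31 ± 0.234 to 3.65 ± 0.463 TPM (-0.45), and BTC rose from 1.03 ± 0.0382 to 1.65 ± 0.239 TPM (0.38). The sheddases ADAM17 (-0.19) and ADAM10 (0.24), which free ligands from the membrane, did not pass. In all, 4 of 12 rose and 6 fell (5 and 6 without overexpression replicate 1).

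Other receptor tyrosine kinases and their ligands fell more often than they rose, 12 against 3 of 23 (15 against 3 without overexpression replicate 1). AXL, a receptor known from resistance to EGFR inhibitors, stood at 26.3, 25.4 and 26.9 TPM in the control libraries and 7.83, 9.01 and 8.97 TPM in the overexpressing libraries (log2 fold change -1.51, SE 0.0674, adjusted p = 4.35e-05). Its ligand GAS6 fell from 15.9 ± 0.178 to 8.49 ± 0.463 TPM (-0.84) and its relative TYRO3 fell from 5.81 ± 0.0523 to 2.39 ± 0.0640 TPM (-1.01). PDGFB (-1.11), PDGFC (-0.90), FGFR1 (-0.78) and the IGF-binding IGFBP5 (-1.12) fell, and the angiogenic ligand VEGFA rose from 18.7 ± 0.626 to 36.3 ± 3.64 TPM (0.91).

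Genes downstream of ERK were split. Among 17 tested ERK feedback and ERK-induced genes 5 rose and 11 fell (6 and 11 without overexpression replicate 1), with a median of -0.51. The ERK phosphatases DUSP5, from 10.2 ± 0.160 to 28.5 ± 0.541 TPM (1.40), and DUSP6, from 0.993 ± 0.370 to 3.39 ± 0.620 TPM (1.15), rose, as did the feedback inhibitor SPRY1 (1.13). IER3, an early-response gene, fell from 854 ± 36.4 to 161 ± 20.4 TPM (-2.41), the chromatin protein HMGA1 fell from 522 ± 17.7 to 211 ± 14.6 TPM (-1.30), and DUSP7 fell from 13.6 ± 0.685 to 6.26 ± 0.342 TPM (-1.01).

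Immediate-early genes, which respond to a stimulus without new protein synthesis, were mostly higher. Of 21 tested 12 rose and 5 fell (13 and 5 without overexpression replicate 1), with a median of 0.48. FOS stood at 133, 134 and 135 TPM in the control libraries and 910.2, 1027 and 1007 TPM in the overexpressing libraries (log2 fold change 2.86, SE 0.0635, adjusted p = 8.22e-06). FOSB stood at 32.5, 31.5 and 35.3 TPM in the control libraries and 142, 188 and 182 TPM in the overexpressing libraries (log2 fold change 2.32, SE 0.12, adjusted p = 6.04e-05). EGR1 rose from 82.6 ± 2.83 to 301 ± 32.9 TPM (1.85), JUNB rose from 411 ± 9.18 to 1063 ± 116 TPM (1.36) and the mRNA-destabilising ZFP36 rose from 76.4 ± 1.27 to 247 ± 25.5 TPM (1.68). The FOS family member FOSL1, a stable AP-1 subunit, went the other way, at 28.6, 31.3 and 30.6 TPM in the control libraries and 7.46, 6.67 and 6.696 TPM in the overexpressing libraries (log2 fold change -1.97, SE 0.0653, adjusted p = 1.86e-05). EGR1 was the only 1 of 18 tested members with a promoter sequence whose 250 bases before the start site held a CArG box, the serum response factor element, against 1.14% of 27305 promoters. It is shown because 2 such elements lie in the 200 bases before its start (chr5:138465279-138465478, plus strand, GRCh38.p14, from RefSeq), with the CArG boxes in capitals.
EGR1: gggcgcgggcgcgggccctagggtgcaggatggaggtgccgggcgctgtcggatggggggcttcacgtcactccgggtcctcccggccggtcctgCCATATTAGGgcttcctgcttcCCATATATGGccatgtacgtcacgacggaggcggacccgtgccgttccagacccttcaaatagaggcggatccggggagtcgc

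Interferon genes were higher. Type I and III interferons act through receptors and the kinases JAK1 and TYK2 on a complex that holds STAT2 and IRF9 and binds the interferon-stimulated response element (ISRE) of antiviral genes. Of 31 tested effector genes 21 rose and 1 fell (26 and 1 without overexpression replicate 1), with a median of 0.77. An ISRE-type motif, a pair of GAAA with any 2 bases between, searched on both strands in the 250 bases before the start site, was present in 15 of the 27 tested members with a promoter sequence (55.6%) and in 3.07% of 27305 promoters. Of these 15 genes 12 rose, and of the 12 without it 6 rose. The list was made of known interferon-stimulated genes, so a high share with the motif follows in part from that choice and is not a result of these data. The 200 bases before the start are shown for 3 of the effector genes with the largest rises and the motif, IFIT1 (chr10:89392423-89392622, plus strand), IFI6 (chr1:27672193-27672392, minus strand) and IFI44L (chr1:78620248-78620447, plus strand), each from RefSeq on GRCh38.p14 in the direction of the gene, with the ISRE-type motif on either strand in capitals.
IFIT1: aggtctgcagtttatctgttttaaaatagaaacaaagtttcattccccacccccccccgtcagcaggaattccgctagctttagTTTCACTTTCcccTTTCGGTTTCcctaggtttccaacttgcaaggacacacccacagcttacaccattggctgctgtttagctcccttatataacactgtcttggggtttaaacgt
IFI6: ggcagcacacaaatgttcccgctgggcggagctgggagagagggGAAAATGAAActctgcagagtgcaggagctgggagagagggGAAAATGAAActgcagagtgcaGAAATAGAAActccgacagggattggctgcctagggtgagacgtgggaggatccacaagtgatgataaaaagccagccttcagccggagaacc
IFI44L: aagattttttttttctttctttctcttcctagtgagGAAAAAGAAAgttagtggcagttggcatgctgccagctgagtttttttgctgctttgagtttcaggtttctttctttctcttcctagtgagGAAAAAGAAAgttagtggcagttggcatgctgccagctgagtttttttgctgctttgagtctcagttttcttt

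IFI6, an interferon-induced membrane protein, stood at 12.3, 12.5 and 12.7 TPM in the control libraries and 75.5, 50.3 and 57.6 TPM in the overexpressing libraries (log2 fold change 2.18, SE 0.15, adjusted p = 0.000137). IFIT1, which binds foreign RNA ends, stood at 2.38, 2.51 and 2.39 TPM in the control libraries and 13.7, 14.1 and 12.8 TPM in the overexpressing libraries (log2 fold change 2.08, SE 0.0582, adjusted p = 1.43e-05). IFI44L stood at 0.841, 0.920 and 0.853 TPM in the control libraries and 6.78, 8.02 and 7.54 TPM in the overexpressing libraries (log2 fold change 2.17, SE 0.0733, adjusted p = 1.94e-05). In each case the 3 overexpressing libraries lay above the controls, as they did for 34.5% of all tested genes. These genes were picked for the size of their rise, and IFI44L entered the test through the overexpressing libraries alone. The membrane protein IFITM1 rose from 6.77 ± 0.364 to 33.8 ± 4.11 TPM (2.16), the GTPase MX1 rose from 1.58 ± 0.144 to 6.52 ± 0.502 TPM (1.55), and OAS1, which makes the activator of RNase L, rose from 1.28 ± 0.0740 to 4.18 ± 0.384 TPM (1.18). IFITM1 has close paralogs with which it could share reads.

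Components of the pathway itself gave 13 rises and 3 falls among 23 (15 and 4 without overexpression replicate 1). IRF9 stood at 13.8, 15.6 and 14.98 TPM in the control libraries and 38.1, 39.2 and 40.4 TPM in the overexpressing libraries (log2 fold change 1.35, SE 0.0603, adjusted p = 4.32e-05). STAT2 stood at 11.3, 11.4 and 11.9 TPM in the control libraries and 23.2, 30.7 and 29.96 TPM in the overexpressing libraries (log2 fold change 1.20, SE 0.11, adjusted p = 0.000439). The kinase TYK2 rose from 10.1 ± 0.497 to 18.01 ± 1.43 TPM (0.77), and the factors IRF7 (0.64) and IRF3 (0.73) rose. Of the nucleic acid sensors, RIGI rose from 0.829 ± 0.0499 to 1.904 ± 0.144 TPM (0.67) and the adaptor STING1 rose from 33.8 ± 0.786 to 70.6 ± 1.15 TPM (1.04), but CGAS, the sensor of cytosolic DNA that feeds STING1, fell from 3.36 ± 0.347 to 1.66 ± 0.157 TPM (-0.71). The pathway inhibitor SOCS1 fell from 7.56 ± 0.440 to 2.79 ± 0.316 TPM (-1.18). The receptor chain IFNAR2 (-0.10) did not pass, nor did IFNLR1 at 1.66 ± 0.124 and 1.67 ± 0.283 TPM.

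MHC class I and antigen processing genes, some of which interferon also induces, did not share the direction, with 6 rises and 8 falls among 21 (7 and 10 without overexpression replicate 1). The falls numbered 4 without control replicate 1 and 5 without control replicate 2 or 3 or overexpression replicate 3. The immunoproteasome subunit PSMB10 rose from 43.5 ± 1.43 to 101 ± 24.1 TPM (1.17), and the class I co-activator NLRC5 fell from 1.16 ± 0.0483 to 0.679 ± 0.139 TPM (-0.37).

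**Figure D4:**
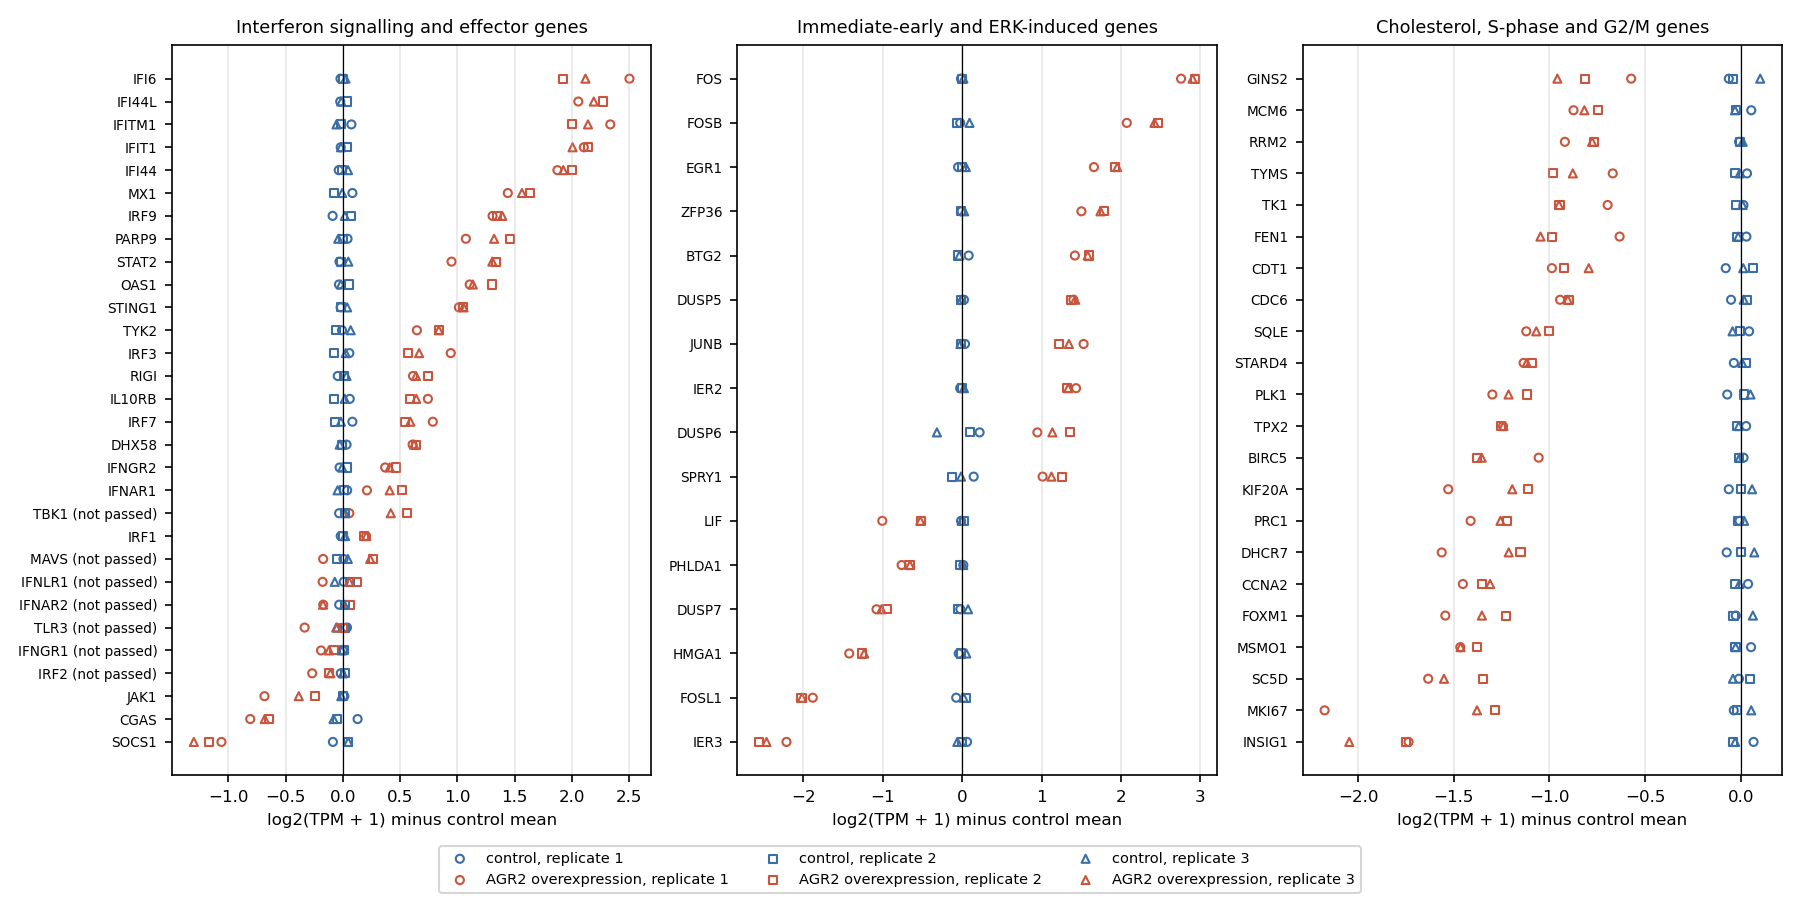
Log2(TPM + 1) of each of the 6 libraries minus the control mean (x axis) for interferon genes, immediate-early and ERK-induced genes, and cholesterol, S-phase and G2/M genes, with controls in blue, overexpressing libraries in red and members that missed the test marked. FOS and FOSL1, with log2 fold changes of 2.86 and -1.97, lie on opposite sides of 0, and every cholesterol, S-phase and G2/M gene shown lies below its controls.

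Cell cycle genes were lower in the overexpressing cells. Genes of mitosis are held off by the DREAM complex through the cell cycle genes homology region (CHR), and genes of DNA replication are driven by E2F factors. Of 37 tested mitosis and G2/M genes 34 fell and 1 rose (36 and 1 without overexpression replicate 1), with a median of -0.92. The rises numbered 0 without control replicate 2 or 3 or overexpression replicate 2 or 3. Of 31 S-phase genes 26 fell and 1 rose (26 and 2 without overexpression replicate 1), with a median of -0.48. The S-phase rises numbered 0 without control replicate 2 or 3 or overexpression replicate 3 and 2 without overexpression replicate 1.

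The CHR motif TTTGAA was present on either strand of the 250 bases before the start in 16 of 30 mitosis genes with a promoter sequence (53.3%) and in 13.6% of all promoters. Of those 16 genes 15 fell, and of the 14 without the motif 13 fell. The E2F motif GCGGGAA was present in 12 of 26 S-phase genes (46.2%) and in 5.59% of all promoters. Of those 12 genes 9 fell and of the 14 without it 12 fell. Both lists were made of known cell cycle genes, so high shares with these motifs follow in part from that choice and are not results of these data. PLK1 (chr16:23678689-23678888, plus strand) and MKI67 (chr10:128126424-128126623, minus strand) are shown with the CHR in capitals, and CDT1 (chr16:88803589-88803788, plus strand) and TYMS (chr18:657453-657652, plus strand) with the E2F motif in capitals, as fallen members that hold it close to the start, each as the 200 bases before the start in RefSeq on GRCh38.p14.
PLK1: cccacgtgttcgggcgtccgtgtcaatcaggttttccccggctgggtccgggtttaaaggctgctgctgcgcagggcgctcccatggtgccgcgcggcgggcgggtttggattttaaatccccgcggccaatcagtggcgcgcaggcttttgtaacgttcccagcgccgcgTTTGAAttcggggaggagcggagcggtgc
MKI67: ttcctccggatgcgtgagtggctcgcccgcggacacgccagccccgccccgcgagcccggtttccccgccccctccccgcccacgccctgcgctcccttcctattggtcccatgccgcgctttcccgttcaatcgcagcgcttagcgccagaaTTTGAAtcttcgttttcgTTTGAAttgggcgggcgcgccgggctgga
CDT1: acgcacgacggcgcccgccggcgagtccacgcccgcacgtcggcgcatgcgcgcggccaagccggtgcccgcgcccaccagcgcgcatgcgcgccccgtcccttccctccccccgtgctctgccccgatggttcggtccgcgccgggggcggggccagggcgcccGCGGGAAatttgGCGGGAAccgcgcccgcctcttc
TYMS: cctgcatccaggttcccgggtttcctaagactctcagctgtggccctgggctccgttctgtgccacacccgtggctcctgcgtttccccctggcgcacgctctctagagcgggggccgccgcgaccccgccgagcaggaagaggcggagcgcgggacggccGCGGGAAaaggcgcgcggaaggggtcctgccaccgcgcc

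MKI67, the proliferation antigen Ki-67, stood at 17.8, 18.04 and 19.04 TPM in the control libraries and 3.27, 6.904 and 6.42 TPM in the overexpressing libraries (log2 fold change -1.61, SE 0.24, adjusted p = 0.00234; -1.33 without overexpression replicate 1). The mitotic transcription factor FOXM1 fell from 22.5 ± 0.913 to 8.102 ± 0.993 TPM (-1.38), cyclin A2, CCNA2, fell from 33.8 ± 0.859 to 12.5 ± 0.678 TPM (-1.37), the mitotic kinase PLK1 fell from 16.9 ± 0.775 to 6.76 ± 0.493 TPM (-1.21) and the survivin gene BIRC5 fell from 21.1 ± 0.200 to 8.25 ± 1.19 TPM (-1.26). Among S-phase genes the licensing factors CDT1, from 14.999 ± 0.800 to 7.56 ± 0.590 TPM (-0.90), and CDC6, from 6.36 ± 0.227 to 2.902 ± 0.0702 TPM (-0.92), fell, as did the flap endonuclease FEN1, from 53.03 ± 0.974 to 28.4 ± 4.72 TPM (-0.89), and the thymidylate synthase TYMS, from 15.5 ± 0.351 to 8.23 ± 1.04 TPM (-0.84).

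Genes of the G1 phase gave 4 rises and 10 falls among 24 (4 and 13 without overexpression replicate 1). The rises numbered 1 without control replicate 1 or 2 and 2 without control replicate 3 or overexpression replicate 3. CDKN1A, the p21 inhibitor, was lower rather than higher, at 8.98, 8.68 and 9.06 TPM in the control libraries and 1.78, 1.52 and 1.63 TPM in the overexpressing libraries (log2 fold change -1.91, SE 0.0599, adjusted p = 1.64e-05). Cyclin D1, CCND1, fell from 161 ± 1.69 to 108 ± 6.28 TPM (-0.57) and its kinase CDK4 fell from 68.97 ± 2.93 to 41.9 ± 4.86 TPM (-0.71). The inhibitors CDKN2B (-0.17), CDKN1C (0.16) and CDKN2D (-0.47) did not pass, and CDKN2C fell from 1.67 ± 0.0874 to 0.566 ± 0.284 TPM (-0.79). Cyclin D3, CCND3, rose from 1.85 ± 0.0315 to 2.79 ± 0.0868 TPM (0.41).

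Histone genes moved the other way. Of 30 tested replication-dependent and clustered histone genes 21 rose and 0 fell (21 and 2 without overexpression replicate 1), with a median of 0.80. H4C12 rose from 1.004 ± 0.547 to 4.83 ± 0.453 TPM (1.58), H3C4 rose from 2.04 ± 0.351 to 7.87 ± 0.326 TPM (1.55), H2AC6 rose from 11.8 ± 0.907 to 28.9 ± 1.97 TPM (1.23) and H2BC21 rose from 16.4 ± 1.93 to 37.6 ± 3.84 TPM (1.15). Most of these messages end in a stem-loop without a poly(A) tail, and how the libraries selected RNA is not given beyond total RNA and a standard Illumina preparation. The genes are near-identical copies, so their reads could be split.

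**Figure D5:**
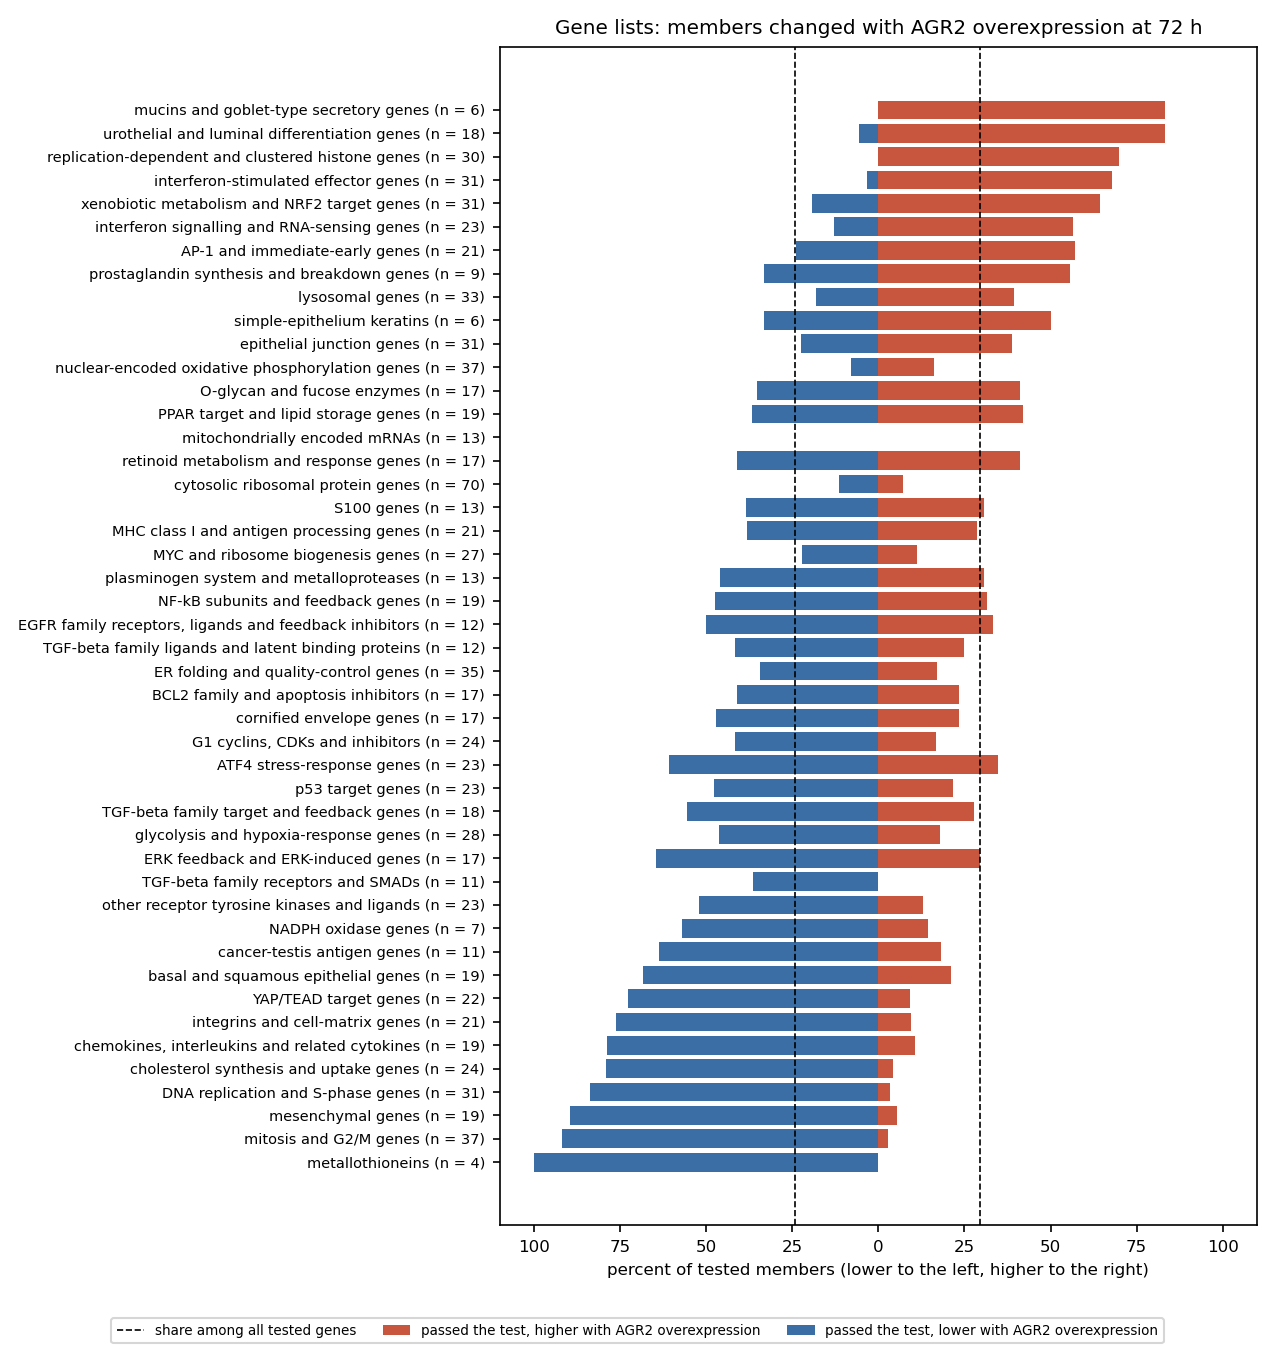
Percentage of tested members of each gene list that rose and that fell, with lines at the shares of all tested genes, 29.4% for rises and 24.3% for falls. The luminal, interferon effector, histone and mucin lists lie above the line for rises, and the mitosis, mesenchymal, S-phase, cholesterol and cytokine lists above the line for falls.

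Cytokines were lower. Of 19 tested chemokines, interleukins and related genes 15 fell and 2 rose, with the same counts without overexpression replicate 1 and a median of -0.88. IL11, a cytokine of the IL-6 family, stood at 13.97, 13.1 and 14.8 TPM in the control libraries and 0.847, 0.798 and 0.727 TPM in the overexpressing libraries (log2 fold change -3.06, SE 0.0664, adjusted p = 8.22e-06). IL32 fell from 15.3 ± 0.795 to 1.08 ± 0.237 TPM (-2.97), and the neutrophil chemokine CXCL8 stood at 11.3, 12.1 and 12.5 TPM in the control libraries and 1.05, 1.46 and 1.38 TPM in the overexpressing libraries (log2 fold change -2.50, SE 0.0887, adjusted p = 2.26e-05). IL6 fell from 17.3 ± 0.200 to 5.03 ± 0.449 TPM (-1.61) and the macrophage growth factor CSF1 fell from 20.5 ± 1.001 to 6.61 ± 0.196 TPM (-1.50). The 2 rises were IL1RN, the antagonist of the IL-1 receptor, from 2.09 ± 0.195 to 11.2 ± 0.521 TPM (1.99), and TNFSF10, the death ligand TRAIL, from 1.47 ± 0.0963 to 9.802 ± 1.26 TPM (2.12). NF-kB subunits and feedback genes gave 6 rises and 9 falls among 19 (7 and 9 without overexpression replicate 1). The feedback inhibitor TNFAIP3 fell from 23.8 ± 0.995 to 7.32 ± 1.26 TPM (-1.59), while NFKBIA rose from 91.9 ± 1.16 to 154 ± 5.69 TPM (0.74) and NFKBIZ rose from 3.97 ± 0.224 to 13.1 ± 3.47 TPM (1.47).

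Of 9 tested prostaglandin genes 5 rose and 3 fell, with the same counts without overexpression replicate 1. The cyclooxygenase PTGS2 rose from 34.97 ± 0.679 to 70.2 ± 12.7 TPM (0.97) and the terminal synthase PTGES rose from 76.3 ± 2.899 to 136 ± 14.96 TPM (0.82), beside the breakdown enzyme HPGD given above. The reductases PTGR2 (0.82) and AKR1C3 (0.60) also rose. The receptor PTGER4 fell from 7.29 ± 0.288 to 4.17 ± 0.580 TPM (-0.69), and the synthase and co-chaperone PTGES3 (-0.20) and the reductase PTGR1 (-0.41) fell. PTGES3 lost its call when any library other than overexpression replicate 1 was left out.

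Genes of cholesterol synthesis and uptake, which SREBP2 controls, were lower. Of 24 tested 19 fell and 1 rose, with the same counts without overexpression replicate 1 and a median of -0.46. INSIG1, the sterol-dependent anchor of SREBP, stood at 8.32, 7.67 and 7.72 TPM in the control libraries and 1.67, 1.64 and 1.15 TPM in the overexpressing libraries (log2 fold change -1.85, SE 0.10, adjusted p = 7.34e-05). The synthesis enzymes MSMO1 (-1.44), SC5D (-1.51), DHCR7 (-1.31) and SQLE (-1.06) also fell. The motif TCACNCCAC, a form of the sterol element, was found in 1 of 19 of these promoters and in 0.875% of all promoters.

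ATF4 is the transcription factor of the integrated stress response. Of 23 tested genes of the ATF4 stress response 8 rose and 14 fell (8 and 15 without overexpression replicate 1), and the rises numbered 4 without control replicate 1, 3 without control replicate 2 or 3 and 5 without overexpression replicate 3. SLC7A5 and SLC3A2 encode the chains of a leucine transporter. SLC7A5 stood at 195, 194 and 205 TPM in the control libraries and 28.1, 34.5 and 33.6 TPM in the overexpressing libraries (log2 fold change -2.59, SE 0.0875, adjusted p = 1.94e-05), and SLC3A2 fell from 77.8 ± 1.56 to 25.99 ± 2.17 TPM (-1.55). The pseudokinase TRIB3 (-1.26), the secreted STC2 (-1.85) and the serine synthesis enzyme PSAT1 (-0.90) fell, and the stress gene NUPR1 rose from 2.41 ± 0.153 to 7.76 ± 1.53 TPM (1.35).

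Genes of endoplasmic reticulum folding, the compartment in which AGR2 works, showed no change of 2-fold or more. Of 35 tested 6 rose and 12 fell (7 and 13 without overexpression replicate 1), with a median of -0.069. The median was -0.03 without that library, and -0.10 and -0.14 with libraries rescaled by the median ratio or quantile-normalised. The falls numbered 5 without control replicate 1 and 7 without control replicate 2 or overexpression replicate 3. HYOU1, a chaperone of the HSP70 family, fell from 95.1 ± 0.735 to 48.7 ± 5.31 TPM (-0.96), and the disulfide isomerase TXNDC5 fell from 20.2 ± 0.373 to 12.1 ± 0.632 TPM (-0.70). P4HB, the founding disulfide isomerase, rose from 189 ± 2.96 to 256 ± 3.67 TPM (0.43), and HERPUD1, a gene of ER-associated degradation, rose from 19.1 ± 0.487 to 25.5 ± 0.468 TPM (0.40).

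Genes under p53 were divided. Of 23 tested 5 rose and 11 fell (9 and 11 without overexpression replicate 1). The rises numbered 9 without overexpression replicate 1 and the falls 7 without control replicate 1 or 2. The largest rise of the p53 list was that of GDF15 (3.10), given above. Besides CDKN1A, the nuclease AEN fell from 8.21 ± 0.386 to 2.66 ± 0.0779 TPM (-1.33) and the BH3-only gene PMAIP1 fell from 63.7 ± 6.61 to 35.7 ± 3.35 TPM (-0.82), whereas BTG2 rose from 8.87 ± 0.499 to 27.6 ± 1.94 TPM (1.53) and FDXR rose from 3.03 ± 0.147 to 7.63 ± 1.14 TPM (1.09). The BCL2 family and apoptosis inhibitors gave 4 rises and 7 falls among 17 (7 and 9 without overexpression replicate 1), and the rises numbered 7 without overexpression replicate 1. The survival gene BCL2L2 rose from 7.51 ± 0.398 to 16.2 ± 1.37 TPM (1.01), the BH3-only BMF rose from 24.1 ± 0.152 to 42.6 ± 6.08 TPM (0.79) and BIK fell from 3.56 ± 0.357 to 1.79 ± 0.358 TPM (-0.71).

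Drug-metabolising genes were higher more often than lower, 20 against 6 of 31 (22 against 7 without overexpression replicate 1), with a median of 0.32. The aldehyde dehydrogenase ALDH3A1 stood at 91.8, 91.2 and 96.3 TPM in the control libraries and 398, 361 and 369 TPM in the overexpressing libraries (log2 fold change 2.00, SE 0.0584, adjusted p = 1.55e-05). The cytochrome CYP4F12 rose from 0.203 ± 0.0390 to 9.19 ± 0.851 TPM (3.08) and CYP4F3 rose from 5.25 ± 0.309 to 25.2 ± 1.97 TPM (2.07). The aldo-keto reductases AKR1C1 (1.30) and AKR1B10 (1.48) rose. The CYP4F and AKR1C genes have near-identical relatives with which reads could be split. HMOX1, haem oxygenase, fell from 53.8 ± 2.26 to 14.4 ± 0.753 TPM (-1.83).

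All 4 tested metallothioneins, small metal-binding proteins, fell, also without overexpression replicate 1, and 3 fell without control replicate 1, 2 or 3 or overexpression replicate 3. MT2A stood at 79.4, 81.7 and 91.4 TPM in the control libraries and 22.8, 8.53 and 12.7 TPM in the overexpressing libraries (log2 fold change -2.54, SE 0.32, adjusted p = 0.00128). MT1F fell from 8.65 ± 1.18 to 1.57 ± 0.790 TPM (-1.95). These genes are near-identical and may share reads. Among NADPH oxidase genes 4 of 7 fell and 1 rose (5 and 1 without overexpression replicate 1), and the falls numbered 2 without control replicate 1, 2 or 3 or overexpression replicate 3. Next to CYBA, the activator NOXA1 rose from 0.819 ± 0.0853 to 2.42 ± 0.323 TPM (0.91). RAC2 was 10.3 ± 0.203 and 9.52 ± 0.216 TPM and did not pass.

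S100 genes, a family of calcium-binding proteins, gave 4 rises and 5 falls among 13 (5 and 6 without overexpression replicate 1). S100A9 rose from 1.85 ± 0.590 to 6.17 ± 1.002 TPM (1.34), S100A2 fell from 2.93 ± 0.0646 to 0.560 ± 0.153 TPM (-1.34) and S100A10 fell from 181 ± 4.13 to 106 ± 15.5 TPM (-0.78). Cancer-testis antigens gave 2 rises and 7 falls among 11, the same counts without overexpression replicate 1, and the falls numbered 4 without control replicate 1, 2 or 3 or overexpression replicate 3. MAGEA10 fell from 86.6 ± 3.63 to 38.7 ± 3.83 TPM (-1.15), MAGEA4 fell from 3.28 ± 0.172 to 0.00521 ± 0.00902 TPM (-2.09) and MAGEC2 rose from 6.85 ± 0.738 to 13.9 ± 0.867 TPM (0.92). The MAGEA genes are close copies.

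For 4 housekeeping groups the counts depended on the library left out, among them overexpression replicate 1. Of 70 ribosomal protein genes 5 rose and 8 fell. The falls numbered 5 without control replicate 3 or overexpression replicate 3 and 39 without overexpression replicate 1 and the rises 2 without control replicate 1, 1 without control replicate 2 or 3 and 3 without overexpression replicate 3. Of 13 mitochondrially encoded mRNAs 0 rose and 0 fell, and without overexpression replicate 1 these counts were 3 and 1. Of 37 nuclear oxidative phosphorylation genes 6 rose and 3 fell, with 10 without overexpression replicate 1 and 11 without overexpression replicate 2 for the rises and 1 without control replicate 1, 2 or 3 or overexpression replicate 3 and 9 without overexpression replicate 1 for the falls. MYC and ribosome biogenesis genes gave 3 rises and 6 falls among 27, and the falls numbered 13 without overexpression replicate 1. Leaving out overexpression replicate 1 also raised the shares over all tested genes, from 29.4% to 35.2% for rises and from 24.3% to 29% for falls. Overexpression replicate 1 is the library with 37.3% of its TPM in mitochondrial transcripts, and the part of that share in these counts was not tested.

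The knockdown at 24 h allows the reverse change of AGR2 to be set beside the overexpression, at another time and with its own controls. The 2 effects were tested against each other over all 12 libraries. The overexpression effect lay above the knockdown effect for 21.2% of genes and below it for 45.6% (22.2% and 46.6% without overexpression replicate 1). The median gene changed by 0.34 with knockdown and by 0.031 with overexpression. After rescaling libraries by the median ratio the shares were 32.8% and 32.1%, and after quantile normalisation 30.8% and 35.4%, so the excess of lower effects depends on the scaling. Differences are therefore also given rescaled. S100P changed by -3.70 with knockdown and by 4.58 with overexpression (difference 8.27, SE 0.23, adjusted p = 1.31e-09; 8.66 rescaled). KRT13 changed by -4.52 with knockdown (difference 7.79, SE 0.17, adjusted p = 2.98e-10; 8.16 rescaled). VIM changed by 3.38 with knockdown (difference -6.66, SE 0.0999, adjusted p = 6.73e-11; -6.21 rescaled). In these genes the 2 manipulations moved RNA in opposite directions. MKI67 changed by 1.69 with knockdown (difference -3.30, SE 0.29, adjusted p = 2.84e-06; -2.87 rescaled), and IFI6 changed by -0.92 (difference 3.10, SE 0.27, adjusted p = 2.77e-06; 3.39 rescaled). Without overexpression replicate 1 the differences of S100P, KRT13, VIM, MKI67 and IFI6 were 8.07, 7.67, -6.68, -3.02 and 2.94.

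CYBA and KRT17 fell under both manipulations. CYBA changed by -4.66 with knockdown and -4.65 with overexpression (difference 0.01, SE 0.16, adjusted p = 0.96), and after rescaling the difference was 0.46 (adjusted p = 0.0462). Its 24 h controls and 72 h controls averaged 34.3 and 32.0 TPM, and the knockdown and overexpressing libraries 0.379 and 0.316 TPM. KRT17 changed by -2.85 with knockdown and -2.65 with overexpression (difference 0.21, SE 0.17, adjusted p = 0.322), and after rescaling the difference was 0.64 (adjusted p = 0.0176). For the other 48 of the 50 largest changes the difference passed the test on both scales. The 50 genes were chosen by their overexpression effect, which is part of the difference, so a high count follows in part from that choice. Over all tested genes the overexpression effect lay above the knockdown effect for 21.2% and below it for 45.6%. The count does not show that knockdown moved these genes in the opposite direction. For CYBA and KRT17 the call thus depends on the scaling, and a p that misses the threshold does not show that the effects are alike.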

How the data were processed

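Per the labels' protocols, total RNA was extracted in NucleoZOL before a standard Illumina library preparation. The submitters' processing notes name STAR 2.7.8a as the aligner and GRCh38 (hg38) as the build. Quantifier, annotation release and strandedness are not stated there. The table the authors deposited holds TPM for 12 libraries and 30225 genes, 21485 of them with a symbol. TPM keep no counts, so depth is unknown and no count test was run. No value was imputed.

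A gene was tested if 3 or more of the 6 libraries compared reached 1 TPM. This left 14618 genes, of which 7872 overlap a gene on the other strand and cannot be told from it without strand. limma 3.58.1 (R 4.3.3) was fitted to log2(TPM + 1) with an intensity trend and 4 residual degrees of freedom, two-sided, Benjamini-Hochberg over all genes, threshold 0.05. The difference between the overexpression and knockdown effects was fitted over 12 libraries. Means are given with the SD (n = 3). The 50 gene lists held 1248 genes, of which 948 were tested; they and the members were chosen with earlier results of these data known, and lists are described by counts and medians. The text names AGR2, the 25 strongest rises and the 25 strongest falls among called genes with a symbol, a mean of 5 TPM in the higher group and no overlap between groups, and up to 8 tested members of each list with the largest change. All tested members were eligible for lists of 12 or fewer and for the TGF-beta, interferon signalling, EGFR family and G1 lists. Promoters were those of RefSeq on GRCh38.p14, searched over 250 bases before the start. Alternatives were other pseudocounts, filters, scalings, fits, a replicate block and leaving out each library. The procedure was tested on simulated data. Tables were handled in Python 3.11.15 with pandas 2.3.3 and numpy 2.4.6, and figures made with matplotlib 3.10.9. Some genes that the rule for named genes covers are counted but not reported here by name.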

Additional observations from a re-analysis of the deposited data

How the results depend on the processing

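Of the 4297 rises and 3551 falls, a filter of 5 TPM left 2436 and 2139, and at 2-fold 607 and 362, since fewer genes were tested. A pseudocount of 0.1 TPM gave 1618 rises and 949 falls of 2-fold or more, since a smaller pseudocount widens the changes of low genes. Library weights, whose fit did not fully converge, gave 6434 rises and 5467 falls; the cause was not tested. Leaving out 1 library gave 3411 to 5151 rises and 2757 to 4234 falls, or 992 to 1134 and 527 to 602 at 2-fold. The log2 fold change of AGR2 kept its call and direction in every setting run. For libraries with the same replicate number, deviations from the group means correlated at -0.045, -0.028 and 0.049. With 3 libraries per group these values cannot decide whether the numbers mark shared cultures. The replicate block gave 3907 rises and 3128 falls. No result changed direction after passing the test. Of 7081 values of named genes under the alternatives 194 lost their call and 98 gained one, and of 1598 counts of list members 148 moved by over 1.5 times. Of 798 list medians 122 moved by more than their spread between the overexpressing libraries. In alternatives added after seeing the data, the overexpression effect lay above the knockdown effect for 3100 genes, 4789 rescaled by the median ratio and 2880 to 3251 with 1 of the 12 libraries left out, and below it for 6663, 4694 and 6317 to 6818. Depth is unknown in TPM, so the precision of low values cannot be given.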

Other observations

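Long non-coding RNAs rose more often than they fell. Of 2153 tested 972 rose (45.1%) and 196 fell (9.10%), with a median of 0.44, against 3042 rises and 2967 falls among 10229 nuclear protein-coding genes. Without overexpression replicate 1 the long non-coding counts were 1053 and 225. A gene could enter the test through the group where it was high, as LINC00930 did. On average 14330 genes reached 1 TPM in the overexpressing libraries and 13786 in the controls. The part of the filter in the long non-coding counts was not tested. NEAT1, the RNA scaffold of nuclear paraspeckles, stood at 29.7, 27.97 and 28.6 TPM in the control libraries and 226, 249 and 249 TPM in the overexpressing libraries (log2 fold change 3.02, SE 0.0588, adjusted p = 7.55e-06, from limma). LINC00930 rose from 0.291 ± 0.0404 to 23.9 ± 1.29 TPM (4.27). SCARNA9, a small Cajal body RNA, rose from 10.96 ± 3.25 to 105 ± 19.7 TPM (3.17), and the antisense RNAs GPC1-AS1 (2.67) and IGFL2-AS1 (2.62) rose, although without strand they cannot be told from their partner genes. Of 1996 pseudogenes 181 rose and 380 fell (218 and 512 without overexpression replicate 1). The shares of pseudogene and mitochondrial TPM differ between the libraries, and their part in these counts was not tested.

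Genes of lipid and lysosomal metabolism changed in both directions. Of 33 tested lysosomal genes 13 rose and 6 fell (14 and 6 without overexpression replicate 1). The acid ceramidase ASAH1 rose from 34.6 ± 1.02 to 104 ± 10.5 TPM (1.56), and the acid sphingomyelinase SMPD1 fell from 19.9 ± 1.26 to 7.48 ± 1.05 TPM (-1.31). PPAR target and lipid storage genes gave 8 rises and 7 falls among 19 (9 and 7 without that library). The triglyceride lipase PNPLA2 rose from 65.1 ± 1.05 to 166 ± 11.6 TPM (1.33), and its inhibitor G0S2 fell from 23.8 ± 0.743 to 2.51 ± 1.35 TPM (-2.88). Retinoid genes gave 7 rises and 7 falls among 17, the same counts without that library, and the retinoic acid hydroxylase CYP26A1 rose from 3.34 ± 0.494 to 9.79 ± 0.474 TPM (1.32) while CYP26B1 fell from 3.798 ± 0.126 to 0.985 ± 0.0783 TPM (-1.27). Glycolysis and hypoxia genes gave 5 rises and 13 falls among 28 (6 and 17 without that library), and the rises numbered 3 without control replicate 2. The aldolase ALDOC fell from 14.6 ± 0.780 to 1.402 ± 0.121 TPM (-2.70) and the phosphofructokinase PFKP fell from 11.5 ± 0.157 to 3.69 ± 0.522 TPM (-1.42).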
